A study of Mus musculus with 39 samples.

Results

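Livers of wild-type mice given perfluorooctanoic acid (PFOA) at 3 mg/kg were compared with livers of wild-type mice given 1 mg/kg, to see which genes stand near their highest level at the lower dose and which move further at the upper one. The members are 7 of the 39 arrays of the series, chosen by their titles: the 4 wild-type arrays at 3 mg/kg, and replicates 1, 2 and 4 at 1 mg/kg. All mice were adult males of the 129SV background, and PFOA was given as its ammonium salt in deionised water by gavage on 7 days. The other groups used here are wild type with pirinixic acid (a synthetic PPARα activator, 50 mg/kg in 0.5% methylcellulose, 4 arrays), PPARα-null mice with PFOA at 3 mg/kg and at 1 mg/kg (4 arrays each), wild type with water (4 arrays) and wild type with methylcellulose (3 arrays). PPARα-null mice with pirinixic acid, water and methylcellulose (4 arrays each) entered the fit of 38 arrays, and the ranges over all 20 null arrays, with no comparison of their own. The labels name 4 animals per group, give no age beyond adult, and do not say how the null allele was made. Whole-liver RNA was hybridised to Applied Biosystems arrays, and every level below is the deposited log2 signal of a probe, so that a difference of 1 is 2-fold.

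PPARα is a nuclear receptor that fatty acids and several synthetic compounds activate; with its partner RXR it binds DNA and raises genes that take up, activate and oxidise fatty acids in hepatocytes. PFOA is a fully fluorinated fatty acid analogue that activates PPARα in rodents, and at higher exposure the related receptors CAR and PXR, which control drug-metabolising enzymes. Peroxisomes and mitochondria shorten fatty acids by beta-oxidation, and enzymes of the CYP4A family oxidise them at the far (omega) end.

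The array labelled 1 mg/kg, replicate 3, went against its label and was left out. It had 9.06 for Cox6b2, where the 20 PPARα-null arrays spanned 6.91 to 10.05 and the other wild-type arrays 13.29 to 17.56. It had 13.91 for Lrtm1, where the null arrays spanned 13.06 to 14.92 and the other wild-type arrays 9.02 to 11.99. Its levels of several genes described below are given with them. For the 7 arrays compared, correlations across probes were 0.929 to 0.966 among the 3 mg/kg arrays, 0.958 to 0.962 among the 1 mg/kg arrays and 0.936 to 0.971 between them. The mean signal of 583 probes for receptor and keratin-associated genes that liver should not use was 8.68 to 9.04 at 3 mg/kg and 8.73 to 8.94 at 1 mg/kg, a difference of 0.007 (two-sided exact permutation test, p = 0.914; the smallest p that 4 against 3 arrays allow is 0.0571). Hepatocyte markers were at 19.51 to 19.75 on average in the 3 mg/kg arrays and 19.78 to 20.03 in the 1 mg/kg arrays, and their median dose step was -0.32 over 5 genes. These averages were lower at 3 mg/kg and did not overlap between the doses. The Kupffer cell markers averaged 12.22 to 12.67 in the 3 mg/kg arrays and 12.26 to 12.83 in the 1 mg/kg arrays (9 genes, median step -0.09). No member of the 10 marker lists passed the test between the doses, which only 2 of all 25408 probes passed. A group of 84 probes divided the 39 arrays into a smaller set of 16 and a larger set of 23. The smaller set has no pirinixic acid arrays. It holds 2 of the 3 mg/kg, 1 of the 1 mg/kg and 2 of the water arrays. In whole liver, fewer cells of a type and less RNA per cell cannot be told apart.

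Between the doses, 2 of 25408 probes passed the test (0.00787%, limma, Benjamini-Hochberg adjusted p under 0.05): Cd36 was higher and Ifitm3 lower at 3 mg/kg. At an unadjusted p under 0.05 there were 1252 probes (4.93%). Cd36 encodes a fatty acid translocase of the cell surface. Its levels were 17.29, 16.31, 16.90 and 16.92 in the 3 mg/kg arrays, 15.77, 15.61 and 15.29 in the 1 mg/kg arrays, and 12.37 to 12.65 in the water arrays. The lowest 3 mg/kg array stood above the highest 1 mg/kg array, and every 1 mg/kg array stood above every water array. The difference between the doses was 1.30 ± 0.22 on the log2 scale (SE), or 2.46-fold, with an adjusted p of 0.0237 (limma). At 1 mg/kg Cd36 was 3.07 above water, 70.3% of its log2 rise of 4.36 at 3 mg/kg. With pirinixic acid it averaged 17.30 ± 0.34 (SD, n = 4), and the array left out had 12.53, inside the range of the water arrays.

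Ifitm3 encodes an interferon-induced transmembrane protein that restricts virus entry. Its levels were 16.20, 16.63, 16.27 and 16.35 at 3 mg/kg, 17.71, 17.25 and 17.23 at 1 mg/kg, and 18.66 to 18.85 with water. Here the 3 mg/kg arrays lay below all 1 mg/kg arrays, and these below all water arrays. The difference was -1.03 ± 0.18 (SE; 2.05-fold lower at 3 mg/kg; limma, adjusted p = 0.0237), and the lower dose had 57.4% of the log2 fall at the upper one. With pirinixic acid Ifitm3 averaged 16.14 ± 0.35 (SD, n = 4); the array left out had 18.65. Its relative Ifitm1 (the brighter of 2 probes) was at 14.85 to 15.46 at 3 mg/kg, against 15.79 to 15.83 at 1 mg/kg, a step of -0.61 ± 0.16 that missed the threshold (adjusted p = 0.537); the step of its other probe was -0.79. Both calls, for Cd36 and Ifitm3, needed every dosed array but 1: without 3 mg/kg replicate 1, 3 or 4, or without any single 1 mg/kg array, the steps were 1.15 to 1.40 for Cd36 (adjusted p 0.061 to 0.252) and -1.12 to -0.88 for Ifitm3 (0.063 to 0.282). Without 3 mg/kg replicate 2 they were 1.48 and -1.12, with adjusted p of 0.00556 and 0.0161. In a fit of the 11 arrays of the doses and water alone neither step passed (adjusted p 0.756 for both).

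**Figure D1:**
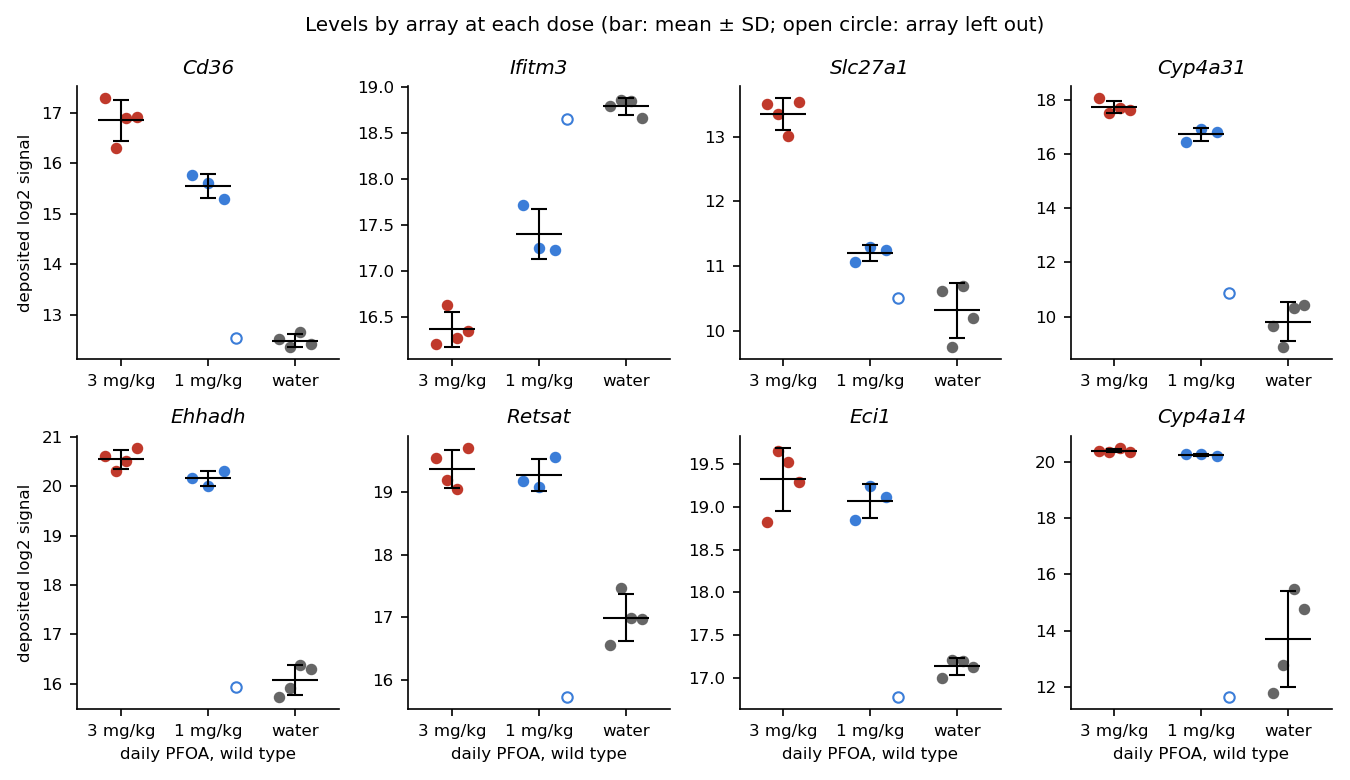
Deposited log2 signal (vertical axes, each with its own range) of 8 genes in wild-type livers with 3 mg/kg PFOA (n = 4), 1 mg/kg PFOA (n = 3) and water (n = 4); filled points are arrays, bars the mean ± SD, and the open circle is the array left out. Cd36 and Ifitm3 step at each dose, Slc27a1 has most of its rise at the upper dose, and Ehhadh, Retsat, Eci1 and Cyp4a14 stand at 1 mg/kg within 0.39 log2 units of their 3 mg/kg mean.

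The start regions of these 2 genes are shown because theirs were the steps that passed the test, together with that of Ehhadh, the gene with the largest change among those near their top at 1 mg/kg. Each window runs from 250 bases before the annotated start to 50 after it (RefSeq, GRCm38.p6). Capitals mark matches to AGGTCA, the half-site that PPARα and related receptors bind, to the paired form AGGNCANAGGNCA, or to GAAANNGAAA, a core of interferon-stimulated elements, searched on both strands. The Cd36 window lies at chr5:17835847-17836146 (minus strand), that of Ifitm3 at chr7:141010695-141010994 (minus strand) and that of Ehhadh at chr16:21787785-21788084 (minus strand).
Cd36: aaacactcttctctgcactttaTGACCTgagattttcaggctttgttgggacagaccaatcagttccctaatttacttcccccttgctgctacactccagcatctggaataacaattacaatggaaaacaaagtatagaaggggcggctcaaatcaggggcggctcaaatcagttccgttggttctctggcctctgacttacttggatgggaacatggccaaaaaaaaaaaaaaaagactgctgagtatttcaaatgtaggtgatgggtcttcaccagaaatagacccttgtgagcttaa
Ifitm3: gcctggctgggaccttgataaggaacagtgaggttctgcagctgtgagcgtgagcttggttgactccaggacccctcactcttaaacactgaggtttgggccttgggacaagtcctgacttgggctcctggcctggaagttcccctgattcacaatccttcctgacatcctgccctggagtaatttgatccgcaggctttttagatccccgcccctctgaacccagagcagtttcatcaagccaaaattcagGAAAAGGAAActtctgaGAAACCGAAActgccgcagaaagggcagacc
Ehhadh: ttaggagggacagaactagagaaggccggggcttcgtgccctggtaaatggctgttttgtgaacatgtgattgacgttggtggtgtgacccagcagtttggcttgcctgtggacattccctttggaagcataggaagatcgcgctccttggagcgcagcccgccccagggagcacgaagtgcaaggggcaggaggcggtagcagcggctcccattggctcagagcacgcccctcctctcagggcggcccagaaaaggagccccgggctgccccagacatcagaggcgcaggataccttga
The Cd36 window holds 1 half-site, that of Ifitm3 2 interferon-type matches, and that of Ehhadh none of the 3 motifs. Of 32851 mouse windows of this length, 16.3% hold the half-site, 0.381% the paired form and 3.44% the interferon-type motif. Among the 16 windows of the named near-top genes with an entry (14 of 15 genes), 2 held the half-site, 0 the paired form and 1 the interferon-type motif.

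Slc27a1, a fatty acid transport protein, had the smallest adjusted p after Cd36 among the genes higher at 3 mg/kg. It was at 13.51, 13.35, 13.01 and 13.54 in the 3 mg/kg arrays, against 11.06, 11.29 and 11.25 in the 1 mg/kg arrays and 9.75 to 10.69 with water. The dose groups lay far apart, with a step of 2.15 ± 0.41 (4.45-fold), but the adjusted p was 0.0677 (limma), and 1 mg/kg had 29.2% of the rise at 3 mg/kg. By unadjusted p the next higher genes were Amn (step 2.25 ± 0.47, adjusted p 0.156), which encodes amnionless, a receptor subunit for vitamin B12 uptake, Pnliprp1, a pancreatic lipase-related protein (2.78), Fbln2, a matrix protein (0.90), Slc39a5, a zinc transporter (1.78), Pltp, the phospholipid transfer protein (0.97), and Anxa13, an annexin (1.41). Amn stood at 13.46, 13.44, 13.77 and 13.28 at 3 mg/kg, 11.59, 11.16 and 10.97 at 1 mg/kg and 7.36 to 8.91 with water. On the lower side, after Ifitm3, were Syt3 (-1.47), Clic3 (-1.56), Dpep3 (-1.96), Hsd3b5 (-2.56), Cyp4f14 (-1.08), a leukotriene and fatty acid hydroxylase, and Car11 (-1.32). None of these passed the test. Genes entered this ranking only if their dose arrays did not overlap and their higher group mean was above the median of all probes. Arrays that did not overlap were found in the higher direction at 669 probes (2.63%) and in the lower at 703 (2.77%).

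The responses to each dose were then set side by side. Against water, 1568 probes changed at 3 mg/kg (6.17%), of which 911 rose (3.59%) and 657 fell (2.59%). At 1 mg/kg 251 changed (0.988%), of which 211 rose (0.83%) and 40 fell (0.157%); both doses use the same 4 water arrays. At 1 mg/kg there were 3 arrays, at 3 mg/kg 4. For 467 probes that rose at least 2-fold at 3 mg/kg (1.84%), the log2 change at 1 mg/kg was taken as a share of that at 3 mg/kg, and its median was 71.7%. A probe was called near its top at 1 mg/kg when this share was at least 80% and the 95% interval of 3 minus 1 mg/kg ended short of a further 2-fold rise. By this rule 73 of the 467 probes (15.6%; 0.287% of all) were near their top, covering 46 named genes, and 50 of the 73 had also passed the test at 1 mg/kg against water. 1 was graded, with a step that passed the test (Cd36), 10 were changed at the upper dose only (0.0394%), and 383 remained undecided (1.51%): 325 of these had a share under 80%, and the other 58 met the limit on the share but had an interval that allowed a further 2-fold rise. Of the 309 probes that fell at least 2-fold (1.22%), 35 were near their floor (0.138%), 1 was graded (Ifitm3), 12 were changed at the upper dose only (0.0472%) and 261 were undecided (1.03%); the median share was 57.9%. The choice of probes used the 3 mg/kg arrays, which favours a high value there, so these shares are a description. Just inside the limit on the share were Pllp (80.0%), Csrp3 (80.3%) and Ech1 (80.5%), and just outside it Uck1 (79.7%) and Cyp8b1 (79.5%). Cenpn was inside the limit on the interval, with an upper end of 0.93, and Sel1l3 outside it with 1.01. With the array left out put back under its label, 7 probes passed between the doses, 69 passed at 1 mg/kg against water, and 22 probes were near their top and 21 near their floor. The near-floor count of 35 was 12 without water replicate 3 and 76 without water replicate 1.

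Peroxisomal fatty acid oxidation was the list with most near-top genes. Of 24 measured members, 14 rose at 3 mg/kg and 11 at 1 mg/kg, with median log2 changes of 0.84 at 3 mg/kg and 0.62 at 1 mg/kg and a median step of 0.21. Over all 11640 genes these medians were -0.01 at 3 mg/kg, 0.02 at 1 mg/kg and -0.02 for the step, and 4.8% rose and 2.93% fell at 3 mg/kg, against 1.19% that rose and 0.198% that fell at 1 mg/kg, which is the background for the lists below. Among the 14 that rose the median share was 83.2%, and 6 were near their top: Ehhadh, Ech1, Decr2, Eci2, Acaa1a and Acaa1b. The class depended on its limits: with shares on the linear signal scale or with an interval limit of 1.5-fold, 0 of the 6 kept it. With a share limit of 90% only Ehhadh did. With the left-out array put back 0 kept it, but that array went against its label (Ehhadh 15.94), so this fit cannot judge the class. Ehhadh, the bifunctional enzyme of the peroxisomal pathway, was at 20.61, 20.31, 20.51 and 20.77 at 3 mg/kg, 20.17, 20.01 and 20.31 at 1 mg/kg and 15.74 to 16.38 with water. It was 22.1-fold above water at 3 mg/kg (adjusted p 4.9e-14) and 16.9-fold at 1 mg/kg (adjusted p 1.04e-11), and the dose groups overlapped. Between arrays of the same replicate number it was 0.44, 0.30 and 0.46 higher at 3 mg/kg. The step was 0.39 with a 95% interval of -0.14 to 0.92, which includes both no step and a further rise of nearly 2-fold. With pirinixic acid it averaged 20.59 ± 0.25 (SD, n = 4), and the array left out had 15.94. Without 3 mg/kg replicate 2, or 1 mg/kg replicate 1 or 4, Ehhadh was no longer near its top by the rule.

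Ech1 and Eci2, which rearrange double bonds of unsaturated fatty acids, and Decr2, the peroxisomal dienoyl-CoA reductase, had smaller rises and similar shares. Ech1 was at 17.85 to 18.43 at 3 mg/kg, 17.34 to 17.89 at 1 mg/kg and 15.62 to 15.88 with water, a share of 80.5% with a step of 0.46 (95% interval 0.02 to 0.91). Decr2 was at 17.78 to 17.98 at 3 mg/kg and 17.37 to 17.76 at 1 mg/kg, and Eci2 at 17.85 to 18.38 at 3 mg/kg and 17.63 to 17.90 at 1 mg/kg. The dose groups overlapped for Ech1 and Eci2 and were 0.02 apart for Decr2. The thiolases Acaa1a and Acaa1b, which catalyse the last step of the cycle, had shares of 82.9% and 85.6%. Acaa1b was at 21.55 on 1 mg/kg replicate 2, while replicate 4 had 19.75; 21.55 is the highest value on each of the 39 arrays, and no level lies above it. Of the genes for the organelle, Pex11a, a factor of peroxisome division, had a share of 80.8% but an interval up to 1.31 and so was undecided, and Pex19, an import factor for peroxisomal membrane proteins, rose at both doses with a share of 73.4%.

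In mitochondria, 10 of 16 measured genes of beta-oxidation and ketone body formation rose at 3 mg/kg and 6 at 1 mg/kg, with a median share of 81.1% among the 10. Near their top were Eci1, Decr1 and Slc25a20. Within the larger array set, with a share limit of 90%, with the 1.5-fold interval limit or with shares on the linear scale, 0 of these 3 kept this class. With the left-out array put back, a fit that cannot judge the class, 0 kept it too. The smaller array set holds 1 of the 1 mg/kg arrays, so the class there would rest on 1 array at that dose. Eci1, the mitochondrial enoyl-CoA isomerase, was at 18.82, 19.65, 19.52 and 19.29 at 3 mg/kg, 18.85, 19.24 and 19.12 at 1 mg/kg and 17.00 to 17.21 with water. The lowest value of the 7 was a 3 mg/kg array, and the step was 0.25 (95% interval -0.15 to 0.66) on a rise of 1.93 at 1 mg/kg. Decr1, the mitochondrial dienoyl-CoA reductase, was at 19.39 to 19.93 at 3 mg/kg, 19.20 to 19.56 at 1 mg/kg and 17.51 to 17.66 with water. Slc25a20, the carnitine-acylcarnitine carrier of the inner membrane, was at 15.47 to 15.97 at 3 mg/kg, 15.37 to 15.60 at 1 mg/kg and 13.93 to 14.10 with water. Hadhb, a subunit of the trifunctional protein (the brighter of 2 probes), and Acadl, the long-chain acyl-CoA dehydrogenase, rose at both doses with shares of 78.3% and 79.0%, just under the limit.

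Outside these pathways the near-top genes had varied roles. Retsat, the retinol saturase, a known PPAR target, was at 19.55, 19.19, 19.05 and 19.70 at 3 mg/kg, 19.17, 19.08 and 19.56 at 1 mg/kg and 16.56 to 17.47 with water. The 3 mg/kg and 1 mg/kg arrays were intermixed, the same-numbered arrays were 0.38, 0.11 and 0.14 higher at 3 mg/kg, and the step was 0.10 (95% interval -0.39 to 0.60) with a share of 95.6%. Tlr5, the receptor for flagellin, was at 12.90 to 13.33 at 3 mg/kg, 12.75 to 13.31 at 1 mg/kg and 11.10 to 11.80 with water. Ephx2, the soluble epoxide hydrolase, had a share of 96.6% with a step of 0.04 (95% interval -0.36 to 0.44). Alpl, alkaline phosphatase, Csrp3, a muscle LIM protein, Pla2g6, a phospholipase, and Fam102a had shares of 83.6%, 80.3%, 82.2% and 98.1%. Zbed5 was lower at 3 mg/kg than at 1 mg/kg (11.79 to 12.44 at 3 mg/kg, 12.17 to 12.64 at 1 mg/kg), which the rule also counts as near the top, and Esyt2 had not passed the test at 1 mg/kg (adjusted p 0.0785). Fads2, the delta-6 desaturase, Lpcat3, which remodels phospholipids, Abcb4, which exports phosphatidylcholine into bile, and Gstt2, a glutathione transferase, had shares of 82.7% to 85.7%. With any 1 array of the 11 of the doses and water left out, Retsat, Eci1, Tlr5, Fam102a, Decr2, Ephx2 and Lpcat3, of the genes named so far, stayed near their top each time. Other settings ended the class more often. With the array left out put back, a fit that cannot judge the class, 0 of these 7 kept it. An interval limit of 1.5-fold left only Ephx2, and Lpcat3 and Fam102a lost the class within each array set. Miga2 and Paqr7 also stayed each time and kept the class under the 4 other class limits. Both lost it within each array set and with the left-out array put back. Of the 15 near-top genes named by size, 10 were higher at 3 than at 1 mg/kg in all 3 same-numbered pairs. The same count over all genes was not made, and the choice of genes risen at 3 mg/kg favours a higher value there. Over 44 near-top genes with their brightest probe in the class, 18 kept it with shares on the linear scale, 14 with a share limit of 90%, 7 with the 1.5-fold limit, 7 within the larger and 9 within the smaller array set, and 7 of 43 measured with the array put back. Of the 73 near-top probes, 9 had a 1 mg/kg mean above 18.81, the 99th percentile over the 25408 probes and 38 arrays of the fit. Among them were Ehhadh, Retsat, Eci1 and Decr1, whose 1 mg/kg arrays all stood above this level. All arrays share 1 highest value (21.55) in the deposited table, and the part of this common upper end in such levels was not tested.

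**Figure D2:**
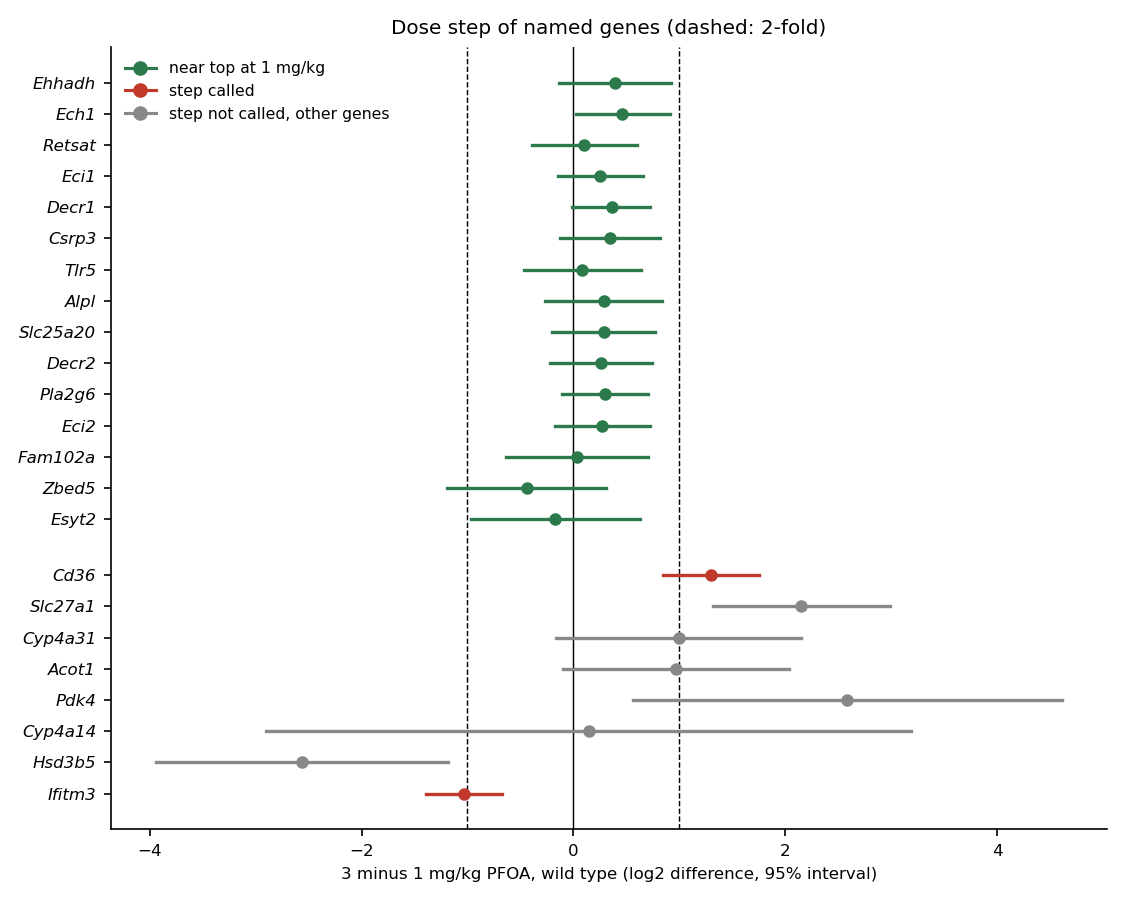
The difference 3 minus 1 mg/kg PFOA in wild-type livers (log2, horizontal axis) with its 95% interval from the limma fit, for the 15 named near-top genes and for 8 others; dashed lines mark 2-fold. The near-top genes lie at -0.44 to 0.46 with upper ends short of 1, and the interval of Cyp4a14 runs from -2.90 to 3.19. Only the steps of Cd36 and Ifitm3 passed the adjusted test. The intervals are not adjusted for the number of probes, and some others, such as those of Slc27a1 and Ech1, also lie apart from 0.

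The largest rises of all, in omega-oxidation and fatty acid handling, were mostly not near their top by the rule. Of 31 measured members 22 rose at 3 mg/kg and 15 at 1 mg/kg, with median changes of 2.04 at 3 mg/kg and 1.48 at 1 mg/kg. For 16 members the arrays at 3 mg/kg lay entirely above those at 1 mg/kg, against 350 of all 11640 genes. The median share of the 22 was 72.8%; 8 had a share of at least 80%. Of these 8, 6 had an interval that allowed a further 2-fold rise and 2, the thioesterase Acot12 and the transcription factor Creb3l3, had risen less than 2-fold at 3 mg/kg, so that 0 were near their top. Cyp4a31, a fatty acid omega-hydroxylase, was at 18.05, 17.53, 17.68 and 17.64 at 3 mg/kg, 16.46, 16.93 and 16.80 at 1 mg/kg and 8.89 to 10.43 with water. Its doses did not overlap, with a step of 1.00 ± 0.57, and its log2 rise at 1 mg/kg (6.91) was 87.4% of that at 3 mg/kg (7.91). Acot1, a cytosolic acyl-CoA thioesterase, was at 18.88, 19.01, 19.15 and 19.25 at 3 mg/kg, against 17.81, 18.33 and 18.19 at 1 mg/kg and 12.17 to 13.88 with water. Its step was 0.97 ± 0.52 and its share 84.4%. Mogat1, a monoacylglycerol acyltransferase, was at 14.37 to 14.88 at 3 mg/kg, 13.52 to 13.78 at 1 mg/kg and 8.64 on average with water, a share of 83.4%.

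Cyp4a14, a further fatty acid omega-hydroxylase, had 20.39, 20.36, 20.48 and 20.35 at 3 mg/kg, 20.26, 20.28 and 20.21 at 1 mg/kg and 11.79 to 15.47 with water. Its 7 dosed arrays were within 0.27 of each other, and pirinixic acid arrays averaged 20.35 ± 0.24 (SD, n = 4). The step was 0.15, but the fit pools the spread over all groups, and the scatter of the other groups gave a standard error of 1.49 and an interval of -2.90 to 3.19, so that Cyp4a14 counts as undecided. Other members went further at 3 mg/kg: Pdk4, the kinase that turns off pyruvate dehydrogenase, was at 15.58 to 17.52 at 3 mg/kg, 13.55 to 14.21 at 1 mg/kg and 10.34 to 13.14 with water (share 48.1%). Cidec, a lipid droplet protein, was at 11.49 to 12.41 at 3 mg/kg, 9.29 to 10.47 at 1 mg/kg and 8.53 on average with water (share 46.2%). Fabp2, a fatty acid-binding protein, was at 17.31 to 17.47 at 3 mg/kg and 16.61 to 16.75 at 1 mg/kg (share 59.4%). Plin2, which coats lipid droplets, had a share of 71.5%, and Vnn1, the pantetheinase, 77.2%. Fgf21, a hepatic hormone of fasting, was at 12.66 to 14.65 at 3 mg/kg and 12.01 to 12.73 at 1 mg/kg, with overlap. Fabp1, the main fatty acid-binding protein of liver, was at 21.10 to 21.55 at 3 mg/kg, 21.15 to 21.32 at 1 mg/kg and 21.15 to 21.40 with water. The highest value on every array is 21.55, so a rise of Fabp1 had little room to show. Ppara itself was at 16.52 to 16.72 at 3 mg/kg, 16.66 to 16.81 at 1 mg/kg and 15.62 to 16.78 with water.

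**Figure D3:**
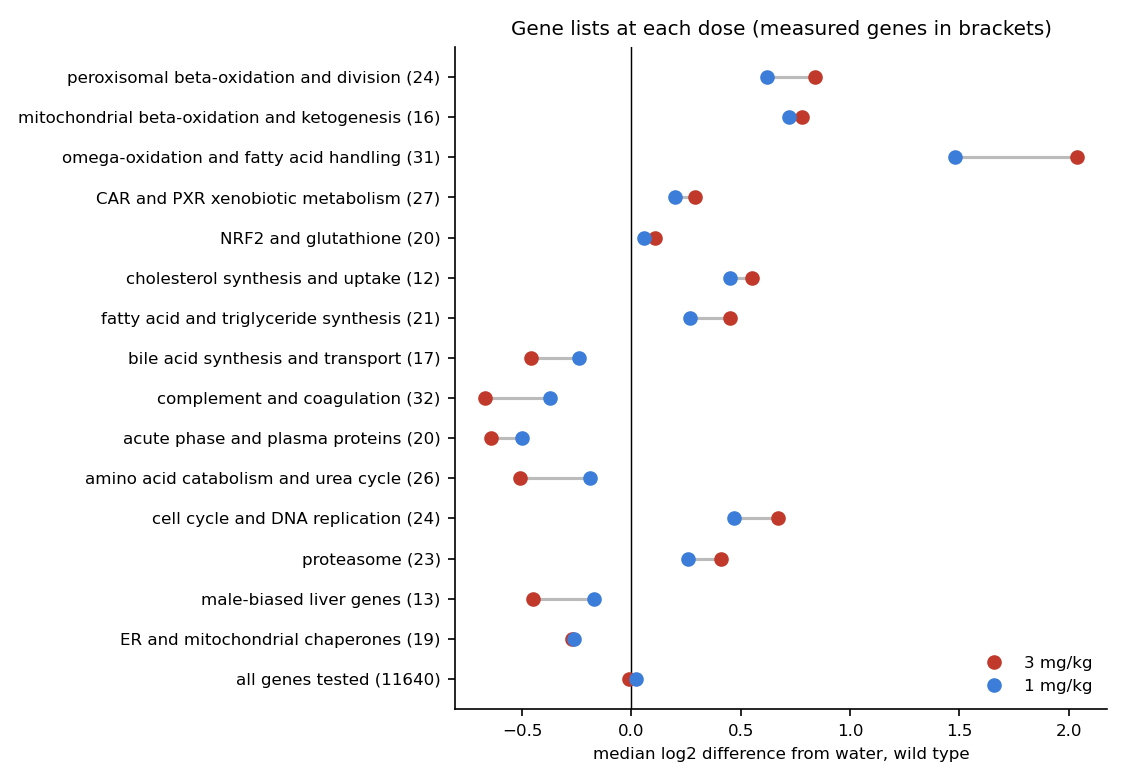
Median log2 difference from water (horizontal axis) over the measured genes of 15 lists and over all genes, at 3 mg/kg (red) and 1 mg/kg (blue) in wild-type livers; both doses use the same water arrays. The peroxisomal list has 0.84 at 3 mg/kg and 0.62 at 1 mg/kg, the omega-oxidation list 2.04 at 3 mg/kg and 1.48 at 1 mg/kg, and the complement list -0.67 at 3 mg/kg and -0.37 at 1 mg/kg.

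Probes raised by pirinixic acid, chosen by its contrast with methylcellulose, were followed as a set. That contrast has no PFOA or water array in it, but its test used the spread pooled over all 38 arrays; a set chosen on the pirinixic acid and methylcellulose arrays alone had a median step of 0.558, with 34 probes higher and 3 lower at 3 than at 1 mg/kg. Pirinixic acid changed 1660 probes (6.53%), of which 772 rose (3.04%) and 888 fell (3.49%). Of 487 probes raised at least 2-fold by pirinixic acid against methylcellulose, 400 (82.1%) were higher at 3 than at 1 mg/kg, against 47.5% of all probes. Their median change was 0.94 at 3 mg/kg and 0.59 at 1 mg/kg, with a median step of 0.36, and 101 (20.7%) had arrays that did not overlap in the higher direction (background 2.63%). By array, the median over this set against the water mean was 1.04, 0.69, 0.95 and 0.96 at 3 mg/kg and 0.75, 0.41 and 0.53 at 1 mg/kg. Replicate 2 at 3 mg/kg lay below replicate 1 at 1 mg/kg, so the groups overlapped, but arrays of the same replicate number, which varied together, differed by 0.29, 0.28 and 0.43 (3 minus 1 mg/kg), each higher at 3 mg/kg. The test called 1 probe of the set higher (Cd36), 215 rose at 3 mg/kg and 111 at 1 mg/kg, and 20 were near their top. Over the 401 probes lowered by pirinixic acid the medians were -0.59 at 3 mg/kg and -0.21 at 1 mg/kg, and 84 (20.9%) had arrays that did not overlap in the lower direction (background 2.77%).

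**Figure D4:**
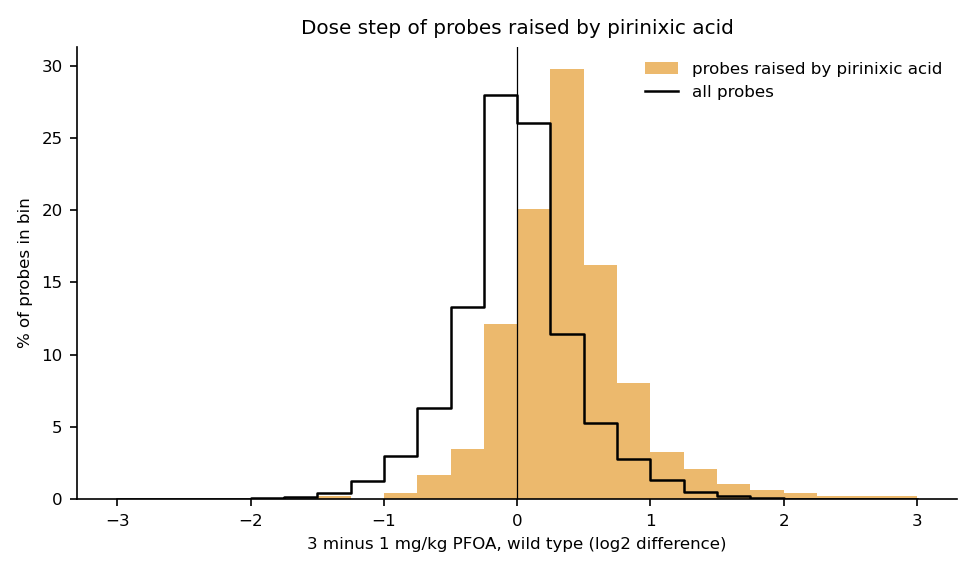
Share of probes (vertical axis, percent) by their difference 3 minus 1 mg/kg PFOA in wild-type livers (log2, bins of 0.25), for 487 probes raised by pirinixic acid (bars) and all 25408 probes (line; 1 probe lies outside the axis). The raised probes have a median of 0.36, all probes -0.02.

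Of 27 measured genes of drug metabolism that CAR and PXR control, 6 rose (22.2%) and 1 fell (3.7%) at 3 mg/kg and 2 rose at 1 mg/kg (7.41%; over all genes 4.8%, 2.93% and 1.19%), and the median share of the 6 was 67.8%. Cyp2c55, a cytochrome P450, was at 14.88, 14.79, 15.13 and 14.92 at 3 mg/kg, 13.45, 13.34 and 13.72 at 1 mg/kg and 9.55 to 11.18 with water, with no overlap and a step of 1.43 ± 0.40 (adjusted p 0.608). The array left out had 15.87, above all 7, and in PPARα-null livers Cyp2c55 averaged 17.70 at 3 mg/kg and 15.75 at 1 mg/kg. Cyp2b10, the classic CAR target, was at 13.48 to 15.56 at 3 mg/kg, 12.39 to 13.59 at 1 mg/kg and 10.28 to 13.13 with water, with overlap and a share of 33.3%. The share leans on water replicate 1 (10.28), as the other water arrays were at 12.78 to 13.13, inside the range at 1 mg/kg. The same-numbered arrays of Cyp2b10 were 1.97, 1.09 and 1.36 higher at 3 than at 1 mg/kg. Gadd45b, a stress-response gene that CAR activates, was at 13.66 to 15.43 at 3 mg/kg, 13.02 to 13.52 at 1 mg/kg and 11.01 on average with water (share 58.2%). Slco1a4, an organic anion transporter, was at 12.06 to 12.79 at 3 mg/kg, 13.50 to 14.78 at 1 mg/kg and 16.07 on average with water (share 58.0%). Of 20 genes of the NRF2 and glutathione list 5 rose at each dose, among them Srxn1, which reactivates peroxiredoxins (share 67.5%), and Gstm4, a glutathione transferase (77.2%).

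The falls at 3 mg/kg included many genes for secreted liver proteins. Of 32 measured complement and coagulation genes 21 fell at 3 mg/kg and 1 at 1 mg/kg (C8b, a subunit of the membrane attack complex), the medians were -0.67 at 3 mg/kg and -0.37 at 1 mg/kg, and the median share of the 21 was 51.5%. C8b was at 14.30, 14.99, 14.59 and 14.77 at 3 mg/kg, against 15.15, 15.38 and 15.52 at 1 mg/kg and 16.24 on average with water. Cfb, complement factor B, was at 17.23 to 17.65 at 3 mg/kg and 17.73 to 17.95 at 1 mg/kg. In all, 8 of the 32 members had arrays that did not overlap in the lower direction, against 346 of all 11640 genes. Among 26 genes of amino acid breakdown and the urea cycle 8 fell at 3 mg/kg and 0 at 1 mg/kg, with medians of -0.51 at 3 mg/kg and -0.19 at 1 mg/kg. Asl, argininosuccinate lyase, was at 16.87 to 17.10 at 3 mg/kg, 17.41 to 18.20 at 1 mg/kg and 18.13 on average with water (share 30.8%). Ass1, the enzyme before it in the urea cycle, was at 19.00 to 19.80 at 3 mg/kg, 20 to 20.27 at 1 mg/kg and 20.29 on average with water, and its change at 3 mg/kg against water missed the threshold (adjusted p 0.0709). Itih2, an inter-alpha-trypsin inhibitor chain, fell at both doses with a share of 62.0%. Of 20 genes for acute phase and plasma proteins 6 fell at 3 mg/kg and 1 at 1 mg/kg. Of 17 genes of bile acid synthesis and transport 2 rose (11.8%) and 4 fell (23.5%) at 3 mg/kg, and 1 rose at 1 mg/kg (5.88%). Slc10a1, the main bile acid uptake carrier, was at 17.70 to 18.11 at 3 mg/kg, 18.38 to 18.45 at 1 mg/kg and 18.67 on average with water (share 30.3%). Cyp7a1, the rate-limiting enzyme of bile acid synthesis, was at 11.74 to 13.72 at 3 mg/kg, 13.38 to 13.81 at 1 mg/kg and 10.78 to 13.77 with water, with overlap; its other probe had a step of -0.86.

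Hsd3b5, a steroid dehydrogenase more abundant in male liver, fell at 3 mg/kg: its levels were 12.45, 13.77, 9.91 and 12.23 at 3 mg/kg, 14.71, 14.85 and 14.40 at 1 mg/kg and 16.69 to 17.28 with water. The groups did not overlap, the step was -2.56 ± 0.68 (adjusted p 0.537), and 1 mg/kg had 47.1% of the fall. Of the 13 male-biased genes measured, 5 fell at 3 mg/kg and 1 at 1 mg/kg. Near their floor at 1 mg/kg were Leap2, a liver-expressed antimicrobial peptide (15.76 to 17.39 at 3 mg/kg, 16.08 to 16.66 at 1 mg/kg, 17.28 to 17.94 with water), Avpr1a, a vasopressin receptor, Slc13a2, a dicarboxylate carrier, Serpinb6a, a protease inhibitor, and Ctsc, a lysosomal protease (14.45 to 14.63 at 3 mg/kg, 14.54 to 14.88 at 1 mg/kg, 15.58 to 16.35 with water). Sry, Vmn1r41, Zfp870 and Elk1 were near their floor by the rule at levels of 7.15 to 9.98 in the dosed arrays, around the array median of 9.14. Serpinb6a stayed near its floor in 2 and Elk1 in 1 of the 11 fits that left out 1 array; of the 35 near-floor probes 11 had passed the test at 1 mg/kg.

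Few genes were changed at the upper dose only. The 10 rising probes had a median level of 7.65 at 1 mg/kg, below the array median of 9.14, and the 12 falling probes one of 10.39. On the rising side were Afap1l2, Sox30, Hesx1, Cenpp and Tmem229b, of which Tmem229b was at 10.80 to 11.48 at 3 mg/kg, 9.78 to 10.31 at 1 mg/kg and 9.62 to 10.14 with water. On the falling side were Clic3, Itpka, Tmem268 and Ppargc1a, the coactivator of mitochondrial gene expression, which was at 10 to 11.07 at 3 mg/kg, 11.16 to 11.85 at 1 mg/kg and 11.39 to 11.97 with water. Of 23 proteasome subunits 11 rose at 3 mg/kg and 0 passed the test at 1 mg/kg. The median share of the 11 was 63.5%, and 0 subunits were changed at the upper dose only by the rule. The median change was 0.41 at 3 mg/kg and 0.26 at 1 mg/kg. The step was positive for 23 of 23, against 47.1% of all genes. Psmb4 was at 17.72 to 17.89 at 3 mg/kg, against 17.43 to 17.67 at 1 mg/kg. Of 24 cell cycle genes 4 rose at 3 mg/kg, with a median share of 64.4%, and 0 passed the test at 1 mg/kg. Among the 4 was Cdc20, at 10.65 to 11.54 at 3 mg/kg, 9.76 to 10.83 at 1 mg/kg and 8.66 on average with water. Cdkn1a, the p21 cell cycle inhibitor, was at 11.40 to 14.63 at 3 mg/kg and 10.50 to 10.96 at 1 mg/kg, and its change against water missed the threshold (adjusted p 0.118).

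The remaining lists changed at few members. Of 21 genes of fatty acid and triglyceride synthesis 6 rose (28.6%) and 1 fell (4.76%) at 3 mg/kg and 1 rose at 1 mg/kg (4.76%); Elovl5, a fatty acid elongase, was at 19.13 to 19.57 at 3 mg/kg, 18.55 to 19.06 at 1 mg/kg and 17.86 on average with water (share 66.9%). Of 12 genes of cholesterol synthesis and uptake 1, Pmvk, rose at 3 mg/kg (8.33%) and 0 at 1 mg/kg. Of 19 chaperone genes 2 rose (10.5%) and 5 fell (26.3%) at 3 mg/kg and 0 changed at 1 mg/kg. Nr1i3, which encodes CAR, was at 16.44 to 16.87 at 3 mg/kg, 16.55 to 16.91 at 1 mg/kg and 16.34 on average with water. None of these lists had a member that passed the test between the doses.

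The dose step was also compared between genotypes. The difference between the step in PPARα-null and in wild-type livers passed the test at 1 probe (0.00394%), S100a8, a calcium-binding protein of neutrophils, and 874 probes (3.44%) had an unadjusted p under 0.05. In null livers S100a8 was at 15.44, 15.37, 16.54 and 14.85 at 3 mg/kg, against 9.91, 7.70, 9.96 and 8.82 at 1 mg/kg. In wild type it was at 9.15, 7.5, 8.78 and 8.92 at 3 mg/kg and 9.28, 8.25 and 8.38 at 1 mg/kg, near the array median. The difference of the steps was 6.5 ± 0.97 (limma, adjusted p 0.00508). No probe passed (0) without wild-type 1 mg/kg replicate 1, within either array set, or with only probes above the median signal. For Cd36 the null step was 0.09, for Ifitm3 -0.35, for Ehhadh 0.35 and for Retsat 0.58, and for none of the 4 did the step differ between genotypes by the test (adjusted p 0.763 to 1).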

How the data were processed

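The deposited table holds log2 signals of 33012 probes on 39 arrays, between 4.85 and 21.55; the labels do not name the base of the logarithm, which was taken from this range. The median was 9.14 and the highest value 21.55 on every array, so the authors had normalised between arrays; for their software, their background correction and the 1.15% of values that are missing, the sources used here give no account. The number of arrays limits the precision, since no read depth exists for arrays. Genes were named through the platform's probe table: 14411 probes have 1 gene symbol, 247 several and 18354 none.

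A linear model with a mean for each group, made with limma 3.58.1 (R 4.3.3), was fitted to the 25408 probes that have no missing value on the 38 arrays other than the one left out, with no further normalisation (28 residual and 2.5 prior degrees of freedom). Tests are two-sided, with Benjamini-Hochberg adjustment over all 25408 probes and a threshold of 0.05; errors of differences are standard errors, those of means standard deviations. The fit and the rule for near-top probes were also run on simulated data with independent noise. There the planted near-top probes had equal effects at both doses, and arrays of the same replicate number did not vary together. The simulation therefore cannot show how the rule performs where such arrays do vary together. Labels name animals but no pooling, so p-values measure the spread between these samples. A probe was near its floor by the mirrored near-top rule, and changed at the upper dose only with at most 25% of the change at 1 mg/kg and an interval of the 1 mg/kg change short of 2-fold. For a gene with several probes the brightest was used.

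The members, gene lists and tests were chosen with earlier results of these data known. Genes were named by rule. For the dose step, up to 15 in each direction were taken among those passing the test, and up to 8 more by unadjusted p. Both choices required no overlap and a higher group mean above the median of all probes. Further choices were up to 15 near-top, 8 near-floor and 10 upper-dose genes by size. Up to 4 members per list by p and a short fixed list were added. Acaa1a, Acaa1b, Ephx2, Fads2, Gstt2, Abcb4, Lpcat3, Miga2, Paqr7, Mogat1, Vnn1, Plin2, Fabp1, Pex11a, Acot12, Creb3l3, Ctsc and the genes beside the class limits were named after their values were seen.

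Replicate numbers are shared between groups. Deviations from group means correlated at 0.232, 0.253 and 0.245 between 3 and 1 mg/kg arrays of the same number, each the highest for its number, so the numbers were taken to pair these samples; this comes from the data, as the labels state no pairing. With water the correlations were -0.229 to 0.159. Alternatives were the left-out array put back, only the arrays compared, the replicate number or array set as a block, each set alone, the mean of genes silent in liver as a covariate, other probe filters, variance models and class limits, cyclic loess, and each array left out.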

Additional observations from a re-analysis of the deposited data

Results flagged for a closer look

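The step from 1 to 3 mg/kg differed between genotypes for S100a8, by 6.5 log2 units (null minus wild type; limma, adjusted p 0.00508), with the levels given above; 0 probes passed this test without wild-type 1 mg/kg replicate 1 or within either array set. In groups of 4 arrays, a sample lay far from the other 3 in 9 of 218 checks over 109 named genes; chance marks about 1 in 20. Among the 3 mg/kg arrays, Csrp3 was at 14.63 on replicate 1 (others 14.95 to 15.01), Cenpp at 10.82 on replicate 2 (9.42 to 9.64), and Pmvk, phosphomevalonate kinase of cholesterol synthesis, at 17.40 (16.55 to 16.63) and Alb, albumin, at 20.95 (20.45 to 20.50) on replicate 3. Among the water arrays, Zfp870 was at 10.84 (8.46 to 8.82), Tmem268 at 11.66 (11.35 to 11.36) and Mvd, of the same synthesis, at 13.89 (12.64 to 12.81) on replicate 3, Cyp2b10 at 10.28 (12.78 to 13.13) on replicate 1, and Ass1 at 19.92 (20.39 to 20.46) on replicate 2.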

How the results depend on the processing

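Counts are of probes; the reported values are 2 probes between the doses, 1568 at 3 mg/kg and 251 at 1 mg/kg against water, 1 for the difference between genotypes, 73 near their top, 35 near their floor, and a median step of 0.36 over the probes raised by pirinixic acid. With the left-out array put back under its label they were 7 between the doses, 69 at 1 mg/kg against water, 2 between genotypes, 22 near their top and 21 near their floor, and Cd36 had a step of 2.05. With only the arrays of the groups compared they were 0 between the doses, 606 at 3 mg/kg, 152 at 1 mg/kg, 3 between genotypes and 14 near their floor, with a median step of 0.558 over a newly chosen set; with only the 7 dosed arrays, an alternative chosen after seeing the data, 0 passed between the doses. Within the larger array set, 0 passed between the doses, 29 at 1 mg/kg and 0 between genotypes, with 31 near their top and 13 near their floor; within the smaller set, which has no pirinixic acid arrays, these were 4, 39, 0, 25 and 4, with 206 at 3 mg/kg. The step of Cd36 was 0.91 within the larger set and 1.82 within the smaller, and that of Ifitm3 -1.03 within the larger and -0.96 within the smaller. The smaller set holds 1 of the 1 mg/kg arrays, so its results at that dose rest on 1 array. Only probes above the median signal gave 0 between genotypes, and cyclic loess 4 between the doses. A share limit of 70% gave 125 near their top, one of 90% 33 near their top and 22 near their floor, a 1.5-fold interval limit 15 and 5, and shares on the linear scale 38 near their top. Pirinixic acid rises of at least 4-fold had a median step of 0.556. Leaving out each array in turn gave 0 to 3 between the doses, 933 (without 3 mg/kg replicate 3) to 2015 at 3 mg/kg, 135 (without 1 mg/kg replicate 2) to 303 at 1 mg/kg, 0 (without 1 mg/kg replicate 1) to 2 between genotypes, 59 to 106 near their top, 12 (without water replicate 3) to 76 (without water replicate 1) near their floor, and a median step of 0.21 to 0.443. The replicate block gave 2 probes between the doses, 1806 at 3 mg/kg, 323 at 1 mg/kg, 98 near their top and 33 near their floor, and the steps of Cd36 (1.28) and Ifitm3 (-1) kept their calls; it changed no other count by over 1.5 times. Reversed were the steps of Ppara (0.02) and Nr1i3 (0.06) within the smaller set, and of Nr1i3 (0.01) without 1 mg/kg replicate 2; with each array left out that of Nr1i3 was -0.20 to 0.01. None of them was called. The causes were not tested. Settings that remove arrays also leave fewer of them, and the part of this was not tested either.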
